A study of Mus musculus with 7 samples.

Results

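Pancreatic duct markers were followed in islets of Langerhans from control mice and from mice in which Wnt4 had been targeted in β-cells. The group held 8 genes, Krt19, Krt7, Sox9, Cftr, Spp1, Muc1, Cldn4 and Mmp7, and it was taken whole, by name, with every array probe whose accession mapped to one of these genes. These were 10 probes, each printed as 1 spot, of 56605 probes on the array, of which 32994 were named and carried 22911 gene symbols. All 7 arrays of the experiment were used.

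Islets made up 3 control samples (Pdx1CreER Tg-; Wnt4fl/fl) and 4 Wnt4βKO samples (Pdx1CreER Tg+; Wnt4fl/fl). The mice were crossed to C57BL/6J, male by the study's methods, and aged 7 weeks at collection. The methods do not say how many mice gave each sample. Both groups were given tamoxifen by gavage at 4 to 5 weeks, and both carried the floxed Wnt4 alleles. The Cre was driven by a Pdx1 promoter transgene and was absent from the controls, so an effect of the Cre itself and of the loss of Wnt4 cannot be told apart. The numbers in the names (control replicates 2, 3 and 4, Wnt4βKO replicates 1 to 4) are those of the labels, and 1 control had been left out by the authors for quality. Each array measured 1 RNA sample in 1 colour, Cy3, and all arrays lay on 1 slide.

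Duct cells line the tubes that carry digestive enzymes from the acinar cells to the gut, and they add a bicarbonate-rich fluid through channels such as Cftr. They are known by simple keratins, by the transcription factor Sox9, by tight junction claudins and by secreted or apical glycoproteins. Islets are freed from the exocrine pancreas with collagenase, here injected through the duct and followed by a density gradient and hand picking, and acinar and duct cells can be carried along with them.

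The arrays correlated with each other at 0.96 to 0.98, and 45.5% to 49.0% of the spots of each were well above background. The targeted gene, Wnt4, had a log2 signal of 11.55, 11.17 and 11.80 in controls and of 11.32, 10.82, 11.01 and 10.90 in Wnt4βKO islets, a difference of -0.49 ± 0.17 (SE, limma, adjusted p = 0.651), and where its probe lies relative to the deleted part was not given. All 10 β-cell markers of the list were tested and their mean log2 signal lay between 11.43 and 11.75 on every array, but the members of that list were not all level: the glucose transporter Slc2a2 was at -1.54 ± 0.10 (SE, limma adjusted p = 0.00697) and Ins1 at 0.30 ± 0.11 (limma adjusted p = 0.651). Both had groups apart, as did 3.84% of all tested probes in the lower direction and 3.44% in the higher. The acinar signal was far from even. The mean log2 signal over 28 digestive enzyme genes was 13.73, 13.63 and 13.63 in the controls and 12.42, 13.44, 13.35 and 12.72 in Wnt4βKO replicates 1 to 4, lower on every Wnt4βKO array, by -0.68 (exact permutation test over 35 splits, two-sided p = 0.0857, smallest possible 0.0286). Of these 28 enzymes, 24 were below 0, against 49.6% of all tested probes. An unadjusted limma p under 0.05 was reached by 10, all lower, against 3.76% of all tested probes in that direction. The median difference was -0.59, and none passed the adjusted threshold. The 2 brightest, the protease genes Ctrb1 and Cela3b, differed by 0.18 ± 0.12 (SE) and by -0.33 ± 0.13 (limma adjusted p = 0.835 and 0.688). At the top of the range quantile normalization gives arrays the same values by rank, as for Cela3b at 15.68 on control replicate 3 and Wnt4βKO replicate 2. How far this held such differences down was not tested. In whole islet preparations, fewer cells of a type and less RNA per cell cannot be told apart.

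No duct marker passed the adjusted threshold. Of the 8 genes, 6 had a probe bright enough to be tested, meaning that the scanner called the spot well above background on 3 arrays or more, and 0 of these 6 probes had a limma adjusted p under 0.05, where the share of all 26151 tested probes was 0.0153%. At an unadjusted p under 0.05 there was 1 of 6, Cldn4, lower in Wnt4βKO, where all tested probes gave 7.02% in both directions and 3.76% in the lower direction. All 6 fold changes were below 0, against 49.6% of all tested probes, but not under every setting. Krt7 turned above 0 with the scanner's processed signal (0.078) and without control replicate 3 (0.034), and Sox9 with cyclic loess (0.0022) and without control replicate 2 (0.060) or Wnt4βKO replicate 1 (0.031). With the acinar mean as a covariate, Krt7 (0.084), Sox9 (0.16) and Spp1 (0.19) were above 0. The median was -0.36, or 0.019 with that covariate, against 0.0054 over 13666 tested genes taken with 1 probe each. The differences ran from -0.78 for Muc1 to -0.019 for Sox9, and the 95% intervals of 5 of the 6 held 0.

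Keratins form the inner scaffold of the duct lining. Krt19, the filament protein by which duct cells are most often stained, had a normalized log2 signal of 7.03, 6.54 and 6.74 in control replicates 2, 3 and 4 and of 6.11, 6.49, 6.68 and 6.22 in Wnt4βKO replicates 1 to 4. The 2 lowest values were those of Wnt4βKO replicates 1 and 4, while replicates 2 and 3 lay among or next to the controls, so the groups overlapped. The mean was 6.77 ± 0.25 (SD, n = 3) in controls and 6.38 ± 0.25 (SD, n = 4) in Wnt4βKO islets, a difference of -0.39 ± 0.17 (SE, 95% interval -0.79 to 0.0036, limma adjusted p = 0.718). The probe was dim. Its processed signal, after the scanner software had taken off the background, was 58.1, 67.9 and 54.4 in controls and 14.0, 39.7, 48.5 and 17.3 in Wnt4βKO islets, all of them well above background by the scanner's own test.

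Krt7, another duct keratin, was nearly level between the groups. Its log2 signal was 9.39, 9.63 and 9.41 in controls and 9.32, 9.56, 9.46 and 9.38 in Wnt4βKO islets. The groups overlapped almost completely, and the difference was -0.044 ± 0.095 (SE, 95% interval -0.27 to 0.18, limma adjusted p = 0.954). A difference larger than these bounds is outside the interval, but a smaller one in either direction is not.

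Sox9, a transcription factor that marks duct cells and their embryonic progenitors, was close to background. The brighter of its 2 probes had a log2 signal of 6.22, 5.96 and 6.03 in controls and of 5.90, 6.18, 6.12 and 6.01 in Wnt4βKO islets, and it was well above background on 6 arrays but not on that of Wnt4βKO replicate 1. The difference was -0.019 ± 0.10 (SE, 95% interval -0.25 to 0.22, limma adjusted p = 0.984). Its other probe stayed below that mark in every sample.

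Cftr, the chloride channel of the duct's apical membrane, did not stand well above background on a single array with either of its 2 probes. Their processed signals ran from 1.15 to 5.37. No level and no fold can be given for Cftr, and a defining transcript of fluid-secreting duct cells was thus not measurable in either group.

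Muc1, a mucin of apical membranes in the ducts and acini, had the widest difference of the group. Its log2 signal was 7.37, 6.93 and 7.96 in controls and 6.12, 7.30, 6.83 and 6.31 in Wnt4βKO islets. Replicates 1 and 4 of Wnt4βKO were again the lowest and the other pair overlapped the controls. The means were 7.42 ± 0.52 (SD, n = 3) and 6.64 ± 0.53 (SD, n = 4), a difference of -0.78 ± 0.33 (SE, 95% interval -1.57 to 0.00096, limma adjusted p = 0.712). It was -0.52 without control replicate 4 (limma unadjusted p = 0.175), close to the -0.51 of Cldn4 without that array. In processed signal the controls were at 89.4, 103.1 and 156.5 and the Wnt4βKO arrays at 13.5, 93.9, 60.2 and 21.9.

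Cldn4, a claudin of epithelial tight junctions, was the 1 member whose groups did not overlap, a pattern shown in the lower direction by 3.84% of all tested probes. Its log2 signal was 6.46, 6.90 and 6.29 in controls and 6.08, 6.16, 6.23 and 6.20 in Wnt4βKO islets. The spread of the 4 Wnt4βKO values was wider than the gap between them and the nearest control, replicate 4. The difference was -0.38 ± 0.14 (SE, 95% interval -0.72 to -0.050, limma unadjusted p = 0.0295, adjusted p = 0.675). Control replicate 3 carried much of it: without that array the difference was -0.20 (limma unadjusted p = 0.0604). Without Wnt4βKO replicate 1 or 2 it was -0.35 or -0.38, with a limma unadjusted p of 0.0648 or 0.0572, and with median scaling in place of quantile normalization it was -0.45 with 0.0768.

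Spp1, the secreted glycoprotein osteopontin, which macrophages make as well as duct cells, had a log2 signal of 9.27, 9.54 and 8.99 in controls and of 8.50, 8.91, 9.65 and 8.63 in Wnt4βKO islets. Wnt4βKO replicates 1, 2 and 4 lay below every control, and the groups overlapped through replicate 3 alone, which had the highest value of all 7 arrays. The difference was -0.34 ± 0.28 (SE, 95% interval -1.0 to 0.31, limma adjusted p = 0.866). Single arrays moved it: it was -0.59 without Wnt4βKO replicate 3 (limma unadjusted p = 0.0131, adjusted p = 0.609), and -0.20 or -0.21 when Wnt4βKO replicate 1 or control replicate 3 was dropped. The macrophage and immune marker mean was highest in Wnt4βKO replicate 4 at 8.42, against 7.38 to 7.71 elsewhere, and Spp1 was not high there.

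Mmp7, a secreted protease of injured duct epithelium, reached the mark of well above background on no control array and on 2 of the 4 Wnt4βKO arrays. Its log2 signal was 5.86, 5.83 and 5.86 in controls and 5.83, 5.94, 6.50 and 5.89 in Wnt4βKO replicates 1 to 4. Replicate 3 stood apart and the other Wnt4βKO arrays were close to the controls. The probe was not tested, and no fold is given.

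**Figure D1:**
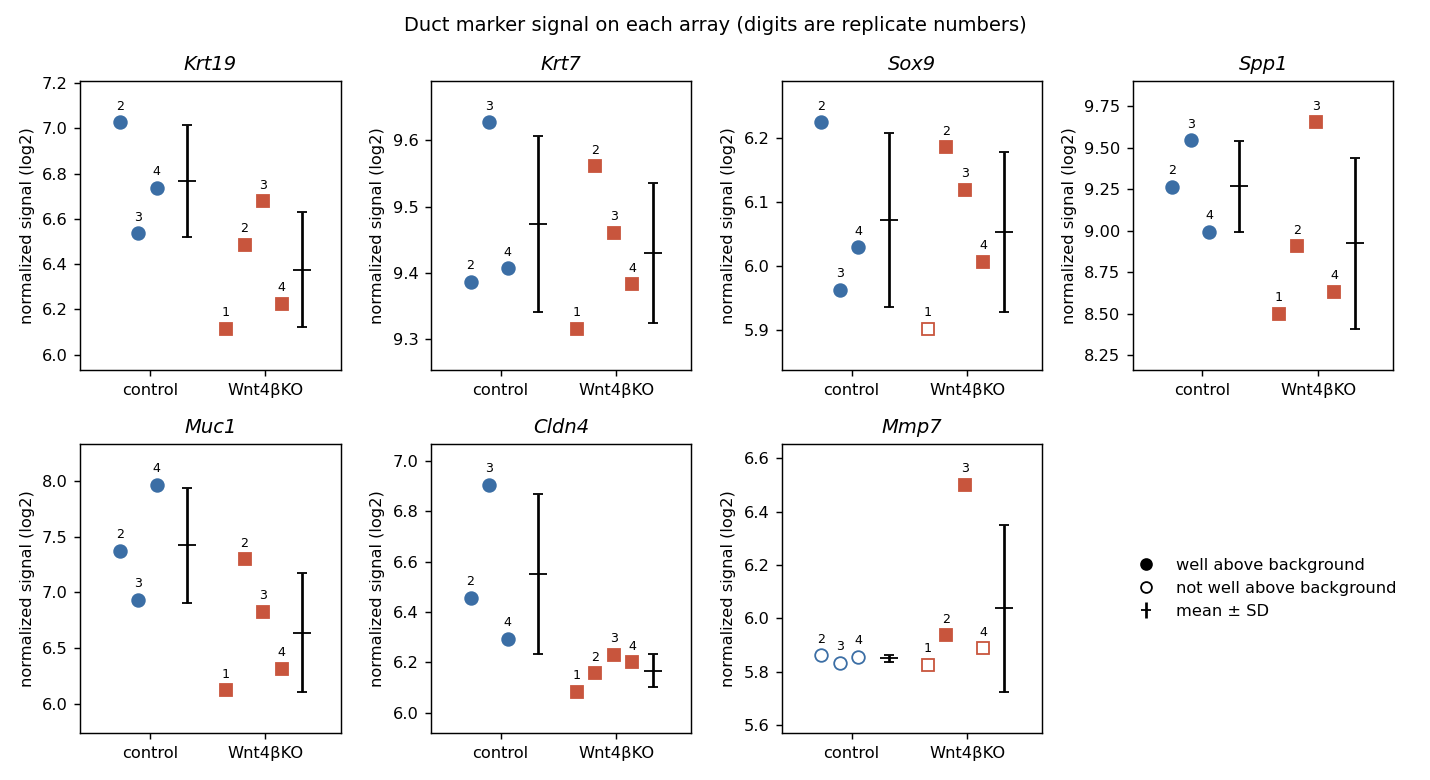
Normalized log2 signal (y axis) of the brightest probe of 7 duct markers on each array, with control arrays as circles and Wnt4βKO arrays as squares, replicate numbers beside them, open symbols for arrays not well above background, and the mean ± SD of each group at its right. Krt19 and Muc1 are lowest on Wnt4βKO replicates 1 and 4, Cldn4 separates the groups, and Krt7, Sox9 and Spp1 overlap. Cftr, which was at background throughout, is left out.

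The start sites of 3 members are printed. They show what stands upstream of the member with the widest difference (Muc1) and the one whose groups were apart (Cldn4). They also show it for Krt7, whose interval around 0 was narrow, as was that of Sox9. They are the 250 bases before the gene start in RefSeq on GRCm38.p6, 5′ to 3′ on the gene's strand, at chr3:89228806-89229055 (plus) for Muc1, chr5:134946935-134947184 (minus) for Cldn4 and chr15:101412153-101412402 (plus) for Krt7. Capitals mark 4 short motifs, TATAAA (the TATA box), GGGCGG (the GC box), CACCTG (an E-box) and ACAAT (the core that SOX factors bind), which do not overlap here and were searched on both strands and chosen, like these genes, after their values were seen.
Muc1: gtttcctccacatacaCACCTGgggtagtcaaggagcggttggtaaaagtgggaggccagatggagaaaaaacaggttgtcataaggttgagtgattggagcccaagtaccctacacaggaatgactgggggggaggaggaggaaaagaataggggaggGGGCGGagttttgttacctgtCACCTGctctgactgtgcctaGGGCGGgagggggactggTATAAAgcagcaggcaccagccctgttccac
Cldn4: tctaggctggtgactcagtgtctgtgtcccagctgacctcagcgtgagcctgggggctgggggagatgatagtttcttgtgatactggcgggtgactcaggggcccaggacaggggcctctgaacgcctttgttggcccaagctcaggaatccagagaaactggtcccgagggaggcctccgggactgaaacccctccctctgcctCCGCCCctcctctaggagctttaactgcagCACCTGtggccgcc
Krt7: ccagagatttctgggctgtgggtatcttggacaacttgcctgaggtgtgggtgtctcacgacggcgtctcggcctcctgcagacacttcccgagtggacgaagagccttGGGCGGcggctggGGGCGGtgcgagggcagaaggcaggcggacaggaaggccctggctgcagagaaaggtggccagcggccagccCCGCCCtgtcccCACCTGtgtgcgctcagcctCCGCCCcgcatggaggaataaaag

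Muc1 had 1 TATA box, 31 bases before its start, with 2 GC boxes and 2 E-boxes. Cldn4 had 1 GC box and 1 E-box, and Krt7 had 4 GC boxes and 1 E-box. Of all 32851 promoter windows of this length, 12.4% held a TATA box, 32.7% a GC box, 17.2% this E-box and 27.7% the SOX core, which none of the 3 windows had. The matches describe these letters only. Of the other members, Spp1, Cftr and Mmp7 also had windows, while Krt19 and Sox9 had none in the table used.

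The duct markers were then set against the acinar signal on each array, since both tissues can be carried into an islet preparation. Over the 7 arrays, all 6 tested members had a Pearson's r above 0 with the mean of the acinar enzymes, against 48.5% of 13609 genes. An exact permutation p under 0.05 was reached by 2 of 6, Krt19 and Muc1, against 10.1% of all genes in both directions and 4.27% with r above 0. Krt19 had r = 0.88 (exact permutation of 5040 orders, p = 0.0052, 0.028 after Benjamini-Hochberg adjustment over the 6 relations computed) and Spearman's rho = 0.89 (p = 0.0123, adjusted 0.0369, exact permutation). Muc1 had r = 0.86 (exact permutation p = 0.0093, adjusted 0.028) and rho = 0.93 (p = 0.0067, adjusted 0.0369, exact permutation). Across all genes, 1.06% had an r at or above that of Krt19 and 1.48% one at or above that of Muc1.

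For the other 4 the relation did not reach the threshold. Spp1 had r = 0.74, Sox9 0.61, Cldn4 0.58 and Krt7 0.57, with exact permutation p of 0.0687, 0.158, 0.151 and 0.159. Rank correlation gave rho = 0.54 for Spp1, 0.61 for Sox9, 0.79 for Cldn4 and 0.43 for Krt7. Of these, Cldn4 had an exact permutation p of 0.048, or 0.096 after adjustment. The acinar mean was not the nearest marker mean for every member, as a description. Krt7 had a higher r, 0.76, with the mean of the alpha, delta and PP cell markers. Cldn4 had 0.60 with the β-cell marker mean, close to its value with the acinar mean. The remaining members had a lower r with both endocrine means than with the acinar mean.

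The arrays were not spread evenly along the acinar axis. Wnt4βKO replicates 1 and 4 lay far below the other 5 arrays in acinar signal, and the calls rested on them: without both, r was 0.59 for Krt19 (exact permutation p = 0.342) and 0.48 for Muc1 (p = 0.408, exact permutation). The slopes, in log2 signal per log2 of the acinar mean, were 0.81 over these 5 arrays against 0.55 over all 7 for Krt19. They were 1.40 against 1.09 for Muc1 and 1.05 against 0.32 for Cldn4. For Krt7, Sox9 and Spp1 the slopes over these 5 arrays were below 0, at -0.18, -0.082 and -0.39. No error was computed for these slopes, which include the group difference, and the acinar means of the 5 arrays ran only from 13.35 to 13.73. Without Wnt4βKO replicates 1 and 4, r was 0.54 for Cldn4, -0.12 for Sox9, -0.18 for Spp1 and -0.27 for Krt7. Leaving out Wnt4βKO replicate 1 alone brought the number of related genes from 2 to 0, with r still 0.82 for Krt19 and 0.78 for Muc1 (exact permutation p = 0.0597 and 0.0736). Without replicate 4 alone both kept their call (exact permutation p = 0.0264 and 0.0375). After each group was centred on its own mean, which takes the genotype difference out, r was 0.78 for Krt19 and 0.74 for Muc1 (exact permutation within groups, p = 0.0625 and 0.0903). Sox9 reached 0.79 (p = 0.0069, the smallest that 144 orders can give, adjusted 0.0417, exact permutation). Cldn4 was at 0.12 (p = 0.486, exact permutation). The acinar mean had an SD of 0.056 in controls and 0.49 in Wnt4βKO. These centred values therefore rest mainly on the Wnt4βKO arrays, replicates 1 and 4 among them. The Sox9 probe was close to background and not well above it on Wnt4βKO replicate 1, and without that array its uncentred r was 0.31. The points share the normalization of their array, and the part this plays was not tested.

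**Figure D2:**
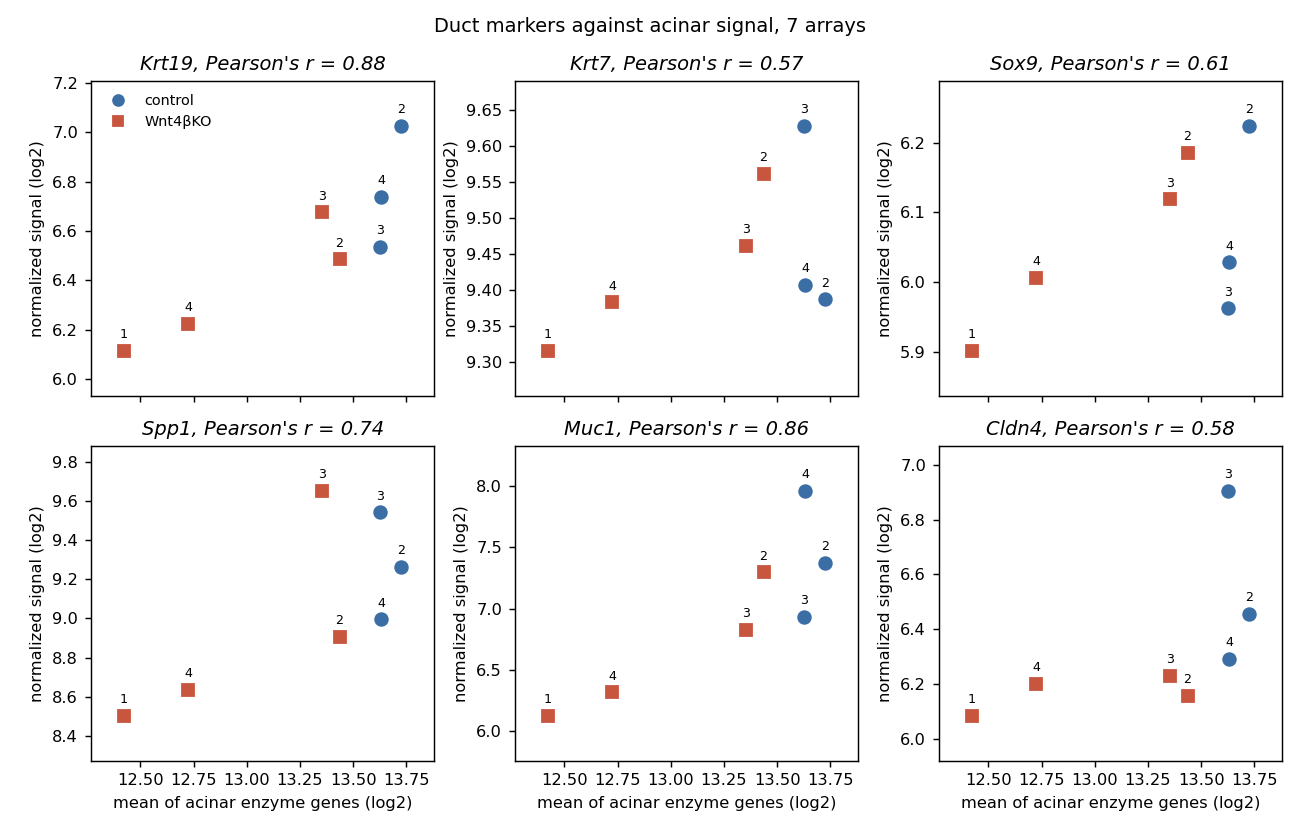
Normalized log2 signal of each tested duct marker (y axes) against the mean log2 signal of 28 acinar enzyme genes (x axes) on 7 arrays, controls as circles and Wnt4βKO as squares with replicate numbers. Wnt4βKO replicates 1 and 4 lie at the low end of both axes for Krt19 (r = 0.88) and Muc1 (r = 0.86), while in the Cldn4 panel the 4 Wnt4βKO arrays are low at any acinar signal.

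Adding the acinar mean to the fit brought Krt19 and Muc1 near 0 and left Cldn4 near its reported value. With that covariate the difference was -0.046 for Krt19, -0.097 for Muc1 and -0.34 for Cldn4 (limma unadjusted p = 0.808, 0.794 and 0.169), and the median over the 6 genes was 0.019. The acinar mean and genotype ran together, so that their parts cannot be told apart. Another measure differed between the groups too. The spike-in signal, in log2 over the 75th percentile of each array, was 1.29, 0.96 and 1.07 in controls. It was 2.84, 1.87, 1.53 and 1.37 in Wnt4βKO replicates 1 to 4, on each of them above every control. It was highest on the array of Wnt4βKO replicate 1, where Krt19 and Muc1 were lowest. Among the Wnt4βKO arrays it was lowest on replicate 4, so it did not follow the acinar mean. Its part in these values was not tested.

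The differences were also taken within the rows of the slide. Wnt4βKO minus control within the first and the second row was -0.44 and -0.33 for Krt19, -1.25 and -0.58 for Muc1, -0.17 and -0.47 for Cldn4 and -0.29 and -0.26 for Spp1. For Krt7 the rows gave 0.031 and -0.085 and for Sox9 0.015 and -0.031, in opposite directions. The first row held 1 control and 2 Wnt4βKO arrays and the second 2 of each.

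Members also moved together to differing degrees, as a description over 7 arrays. Krt19 and Muc1 had r = 0.78, Krt19 and Sox9 0.72, and Sox9 and Cldn4 -0.08. The mean over the 5 members above background on every array, each centred on its gene mean, correlated at 0.986 with the acinar mean, and at 0.84 without Wnt4βKO replicates 1 and 4. That last value includes the group difference: the duct mean was 0.20 to 0.24 in controls and 0.0071 and 0.096 in Wnt4βKO replicates 2 and 3. Between these 2 Wnt4βKO arrays the order was reversed, with acinar means of 13.44 and 13.35. For this duct mean no group-centred value was computed. Of 13632 genes, the 5 nearest to this duct mean were Klk1b8, a kallikrein protease (r = 0.988), Cuzd1, an acinar zymogen granule protein, Rab26, a small GTPase of secretory granules, Cxcr6, a chemokine receptor, and Tmem174, with r no lower than 0.985. Of these, Cuzd1 is itself on the list of acinar enzymes.

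Wider duct lists placed these genes beside others of their tissue. Of 13 genes of fluid and bicarbonate secretion, 7 were tested, with 1 lower and 1 higher at an unadjusted limma p under 0.05, a median of 0.018 and 5 genes at background throughout. Among all tested probes 3.26% were higher and 3.76% lower at that p. Kcnn4, a calcium-activated potassium channel, was 0.69 ± 0.11 (SE) higher by its brightest probe, on every Wnt4βKO array above every control (limma unadjusted p = 4.34e-04, adjusted p = 0.388), where 3.44% of all tested probes had groups apart in this direction. Its second tested probe gave 0.40 ± 0.091. Ano1, a calcium-activated chloride channel, was at -0.40 ± 0.12 (SE, limma adjusted p = 0.608) with its groups apart, and Slc26a6, a bicarbonate exchanger, at -0.25 ± 0.12 (adjusted p = 0.743, limma), while Slc4a4, which brings bicarbonate into duct cells, was at 0.15 ± 0.18.

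Of 12 keratin and junction genes, 10 were tested, none reached an unadjusted limma p under 0.05, and the median was -0.077. Krt23 was at -0.35 ± 0.17 (SE), Cldn7 at -0.14 ± 0.083, Krt8 at 0.12 ± 0.13 and Epcam at 0.081 ± 0.15. Krt8, which endocrine cells also make, had an r of -0.76 with the acinar mean, opposite in sign to Krt19, while Krt23 had an r of 0.80. Of the 10 tested genes of this list, 6 had an r above 0, against 48.5% of all genes. Of 11 transcription factors and cilium genes, 9 were tested, again none at an unadjusted limma p under 0.05, with a median of -0.077. Pkd2, a cilium channel, was at -0.18 ± 0.15 and Foxa2, which endocrine cells also make and for which the array of Wnt4βKO replicate 4 had a flagged spot, at -0.21 ± 0.18. Glis3, a zinc finger factor, was on the other side of 0, at 0.11 ± 0.25.

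Of 10 secreted and surface proteins, 7 were tested, with 1 lower at an unadjusted limma p under 0.05 and a median of -0.022. Clu, the chaperone clusterin, had a log2 signal of 13.48, 13.43 and 13.59 in controls and of 12.52, 12.98, 13.32 and 12.98 in Wnt4βKO islets, with the groups apart, a difference of -0.54 ± 0.17 (SE, limma adjusted p = 0.612). Tff2, a trefoil peptide, was at -1.34 ± 0.60 (SE, limma adjusted p = 0.730). Its values of 12.63, 12.69 and 12.22 in controls and 9.79, 12.35, 11.99 and 10.57 in Wnt4βKO islets were lowest on the same arrays as those of Krt19 and Muc1, and the r with the acinar mean was 0.986. Over the tested genes of each wider list, Foxa2 excepted for its missing value, the median r with the acinar mean was 0.18 for fluid secretion. It was 0.14 for keratins and junctions, -0.16 for transcription factors and cilium and 0.044 for secreted and surface proteins, against 0.67 for the members. Single genes departed from these medians. An exact permutation p under 0.05 with r above 0 was reached by 2 of 7 secreted genes, Tff2 and Clu (r = 0.90), and by Krt23. With r below 0 it was reached by Krt8, and no fluid secretion or transcription factor and cilium gene reached it. The members had 2 of 6 with r above 0, and all genes 4.27%. Lcn2, an iron-binding secreted protein, was at 0.68 ± 0.46 (SE) through Wnt4βKO replicate 4 at 8.14, and Pigr, an antibody transporter, at 0.18 ± 0.33. No gene of the 4 wider lists passed the adjusted threshold.

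**Figure D3:**
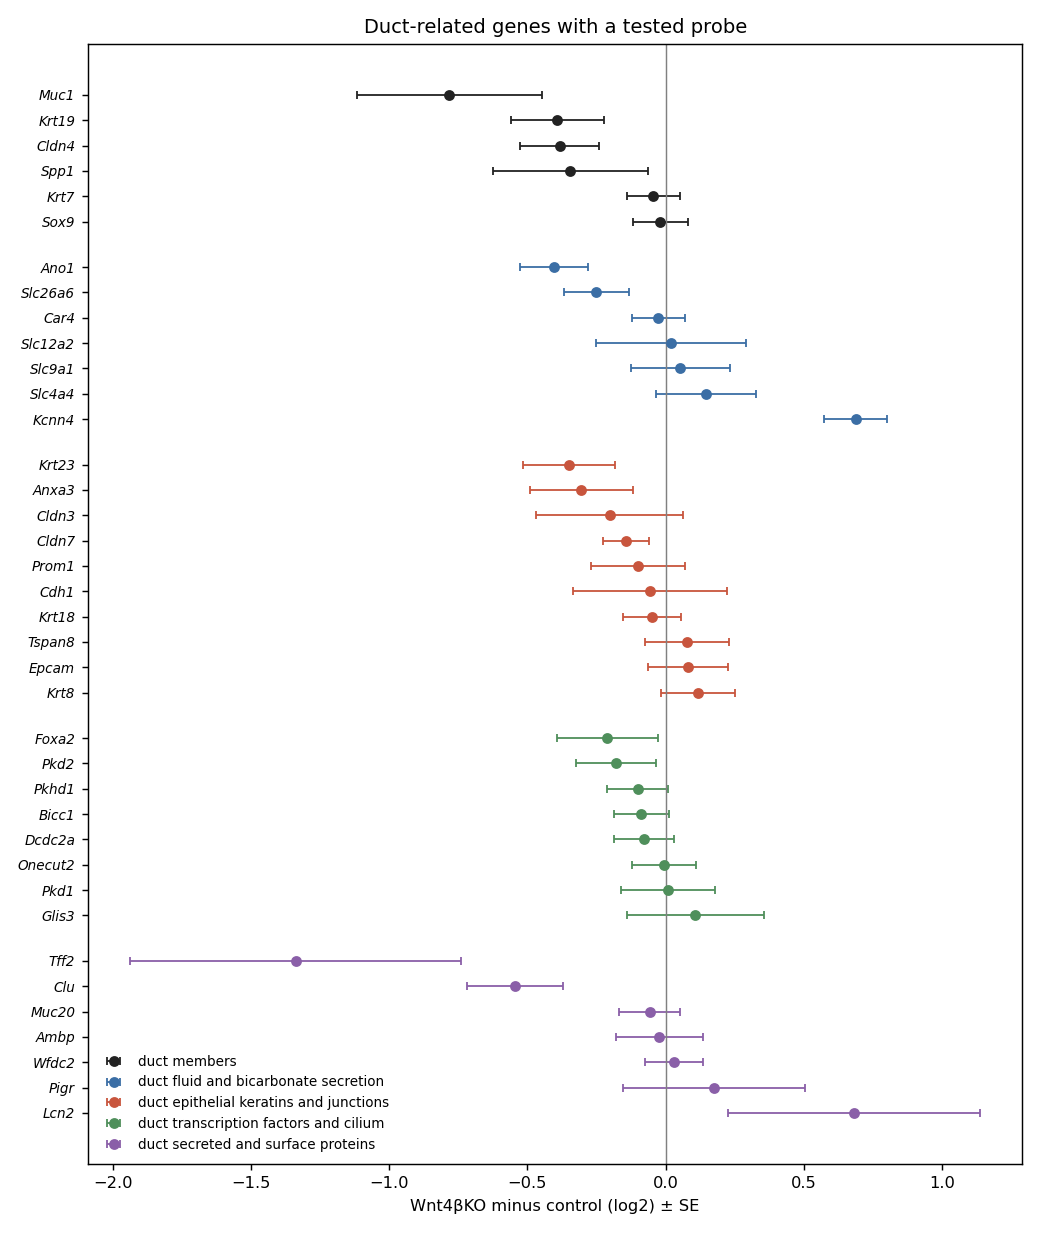
Wnt4βKO minus control difference (log2, x axis) with its SE for duct-related genes with a tested probe (rows, 1 gene left out), coloured by list. All 6 members lie below 0 under the reported normalization, from -0.78 to -0.019, and the other lists scatter on both sides, from Tff2 at -1.34 to Kcnn4 at 0.69.

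The size of the differences depended on the treatment of the signal. The offset of 50 that the authors' methods add to each intensity draws dim probes together, and with an offset of 0 the difference was -0.88 for Krt19, -1.41 for Muc1 and -0.95 for Cldn4, each with a limma unadjusted p under 0.05 but an adjusted p no lower than 0.647. With the scanner's processed signal, where scaling to the 75th percentile of each array also took the place of quantile normalization, the values were -1.12, -1.57 and -0.99. The brighter members were at -0.39 and -0.31 for Spp1 and at -0.047 and 0.078 for Krt7 under these settings, so Krt7 turned its sign with the latter.

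**Figure D4:**
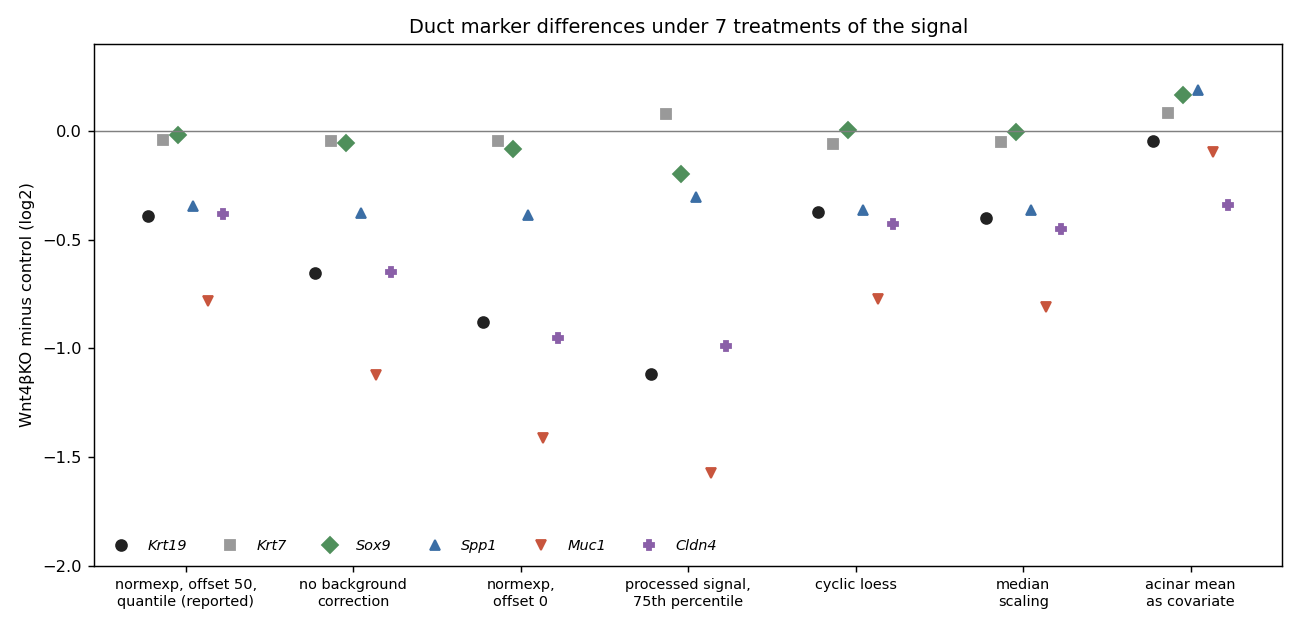
Wnt4βKO minus control difference (log2, y axis) of the 6 tested duct markers under 7 treatments of the signal (x axis), the reported one at the left. Muc1, Krt19 and Cldn4 lie further below 0 without the offset of 50, at -1.41, -0.88 and -0.95, and with the acinar mean as covariate Krt19 is at -0.046 and Muc1 at -0.097.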

How the data were processed

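Islet RNA of 3 control and 4 Wnt4βKO samples, 50 ng each, had been labelled with Cy3 and hybridized to 1-colour Agilent arrays. The authors deposited 1 scanner file per array, of spot intensity on a linear scale, not normalized between arrays; its header names Feature Extraction 12.0.1.1, the submitters' processing notes version 9.1. The deposited value table was not used, because only 1 of 7 columns correlated best with its own array (2 of 7 after centring). Following the methods, normexp with an offset of 50 was applied to the median signal, then quantile normalization and lmFit and eBayes in limma 3.58.1 (R 4.3.3). Tests were two-sided and adjusted by Benjamini-Hochberg over 26151 probes well above background on at least 3 arrays. Flagged spots were set to missing (65 values).

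Accessions were matched to a RefSeq table (GRCm38.p6), which named 58.3% of probes. The brightest probe represented a gene. Relations used scipy 1.17.1 under Python 3.11.15. The members, lists and rules were chosen with earlier results of these data known. Named were all members, at most 2 genes per direction with the smallest p in each wider list, the 2 brightest acinar genes and the 5 genes most like the duct mean; Wnt4 is given as a check of the labels, and 1 gene of the wider lists that this rule names is not reported here. The scripts were tested on simulated data. The number of arrays limits the precision. Alternatives changed the background correction, normalization, filter, variance model, array weights, blocks and covariate, and left out each array in turn. The paper describes the controls as littermates, but the replicate numbers do not say which mice shared a litter, and the arrays were fitted as unpaired. Deviations of same-numbered arrays correlated at -0.13, 0.23 and -0.0057, which cannot settle whether those samples were paired.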

Additional observations from a re-analysis of the deposited data

Results flagged for a closer look

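The log2 signal of Mmp7 on the Wnt4βKO arrays was 5.83, 5.94, 6.50 and 5.89, and the gap between replicate 3 and the nearest of the others was 0.834 of the group's range, above Dixon's 95% critical value. It was 1 of 22 values examined in this way, and chance alone is met by about 1 in 20. The probe was well above background on replicates 2 and 3 only.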

How the results depend on the processing

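No duct marker passed the adjusted threshold under any of 19 alternatives. The number at an unadjusted limma p under 0.05, 1 as reported, was 3 without background correction, with an offset of 0, with the processed signal and with a trended robust variance, 2 with median scaling, with the filter on all 7 arrays and with slide row as a block, and 0 with the acinar covariate. Leaving out each array in turn gave 0 to 3 (0 without Wnt4βKO replicate 1, 2 when control replicate 3 was dropped, and 3 when Wnt4βKO replicate 3 was). The median over the tested genes was -0.63 with an offset of 0, -0.65 with the processed signal, and 0.019, on the other side of 0, with the acinar covariate; leaving out an array gave -0.45 to -0.20. Krt7 changed sign with the processed signal (0.078), the covariate (0.084) and when control replicate 3 was dropped (0.034, in a range over left-out arrays of -0.088 to 0.034), Sox9 with cyclic loess (0.0022), the covariate (0.16) and when control replicate 2 (0.060) or Wnt4βKO replicate 1 (0.031) was dropped (range -0.069 to 0.060), and Spp1 with the covariate (0.19). The cause of these shifts was not tested, apart from the offset, which by construction compresses dim probes. The number of genes related to the acinar mean, 2, was 1 after centring on the group means and 0 without Wnt4βKO replicates 1 and 4, an alternative added after the data were seen; leaving out one array gave 0 to 3. Over all tested probes, the number at an unadjusted p under 0.05 went from 1835 to 770 with median scaling, 2921 without the filter and 598 with the covariate, and the number past the adjusted threshold, 4, ran from 2 to 7. With the replicate block, the median over the duct genes was -0.36 and the number at an unadjusted p under 0.05 was 1, and no call changed. Cftr, and Mmp7 in controls, were limited by signal over background.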
